A study of Mus musculus with 6 samples.

Results

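The sugar and peptide transporter genes described here were 10 genes of the absorptive intestinal epithelium: Slc5a1, Slc2a2, Slc2a5, Slc15a1, Slc7a9, Slc3a1, Slc6a19, Slc1a1, Slc9a3 and Slc26a3, out of 21938 protein-coding genes in the annotation. They were chosen by name, and a peak was assigned to one of them when its summit lay in the gene body or within 10 kb on either side. When the 6 peak lists were merged, 72 of 71286 consensus peaks met this rule. Chromatin accessibility had been measured by ATAC-seq, in which Tn5 transposase cuts and tags open DNA, and a peak is a stretch where tagged fragments pile up above the local background. The material was intestinal crypts of 3 WT samples (genotype Arid3a WT) and 3 Arid3a cKO samples, numbered 1 to 3 in each genotype. Both genotypes were given tamoxifen on 3 consecutive days and were culled 1 month after the first injection, so tamoxifen exposure was shared. In the cKO mice, floxed Arid3a alleles were deleted by a tamoxifen-activated Cre under the Villin promoter, which acts in epithelial cells and leaves the gene intact in stromal cells. The labels do not name the segment of intestine or the age of the mice. For dissociating the crypts, the study's methods refer to a protocol that took crypts from the proximal jejunum. The question was whether open chromatin at these transporter genes differs between WT and Arid3a cKO crypts.

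Nutrient absorption runs through transporters on the apical and the basolateral face of the enterocyte. Glucose and galactose enter with sodium through SGLT1, the product of Slc5a1, fructose enters through GLUT5 (Slc2a5), and GLUT2 (Slc2a2) passes these sugars to the blood. Di- and tripeptides enter with protons through PEPT1 (Slc15a1). Free amino acids use several carriers, among them the cystine and dibasic amino acid exchanger made of b0,+AT (Slc7a9) and its heavy chain rBAT (Slc3a1), the neutral amino acid carrier B0AT1 (Slc6a19) and the glutamate carrier EAAT3 (Slc1a1). The sodium/proton exchanger NHE3 (Slc9a3) and the chloride/bicarbonate exchanger DRA (Slc26a3) take up salt. Most of these genes are known as markers of mature enterocytes. In the study's single-cell sequencing of isolated crypts, enterocytes were a large part of the epithelial cells in both genotypes. The share of enterocytes in the ATAC-seq samples is not given.

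The strength of a peak was expressed as the within-list percentile of its fold, that is, fragments piled up at the summit divided by the background around it. A percentile of 80 means that 80% of the peaks of that list had a lower fold. A promoter peak had its summit between 1000 bp upstream and 100 bp downstream of an annotated start site of the gene, and a distal peak had its summit elsewhere in the window. Distances are from the start of the principal transcript and are positive downstream. All positions are on GRCm38.

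Some stretches of sequence are shown because the comparisons below turn on them. They lie on the plus strand, in windows of 100 bp to either side of the summit, and promoter windows are shown only as far as the start site. Capitals mark the sites of 5 consensus motifs sought without mismatch on both strands: AP-1 (TGACTCA or TGAGTCA), HNF4 (CAAAGTCCA or CAAAGTTCA), ARID3 (ATCAAA or ATTAAA), CDX (TTTATGG or TTTATTG) and, for GATA factors, AGATAA or TGATAA. A match describes these letters only and says nothing of binding. The Slc3a1 promoter and the peak in intron 1 of Slc9a3 are shown as the 2 peaks with all cKO percentiles below all WT percentiles, the Slc15a1 promoter as the peak with the largest difference between genotypes, and the other 3 as the distal peaks of highest rank at their genes.
Slc3a1 promoter, chr17:85028285-85028375: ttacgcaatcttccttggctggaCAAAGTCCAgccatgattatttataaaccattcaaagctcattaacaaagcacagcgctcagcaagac
Slc9a3 intron 1, 6.1 kb from the start, chr13:74127476-74127676: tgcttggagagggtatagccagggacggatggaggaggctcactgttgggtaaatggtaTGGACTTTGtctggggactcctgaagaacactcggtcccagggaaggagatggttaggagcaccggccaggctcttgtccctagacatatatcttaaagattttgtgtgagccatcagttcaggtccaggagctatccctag
Slc15a1 promoter, chr14:121505253-121505382: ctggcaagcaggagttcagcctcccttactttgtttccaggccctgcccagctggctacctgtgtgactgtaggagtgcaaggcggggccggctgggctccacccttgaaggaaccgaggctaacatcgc
Slc2a2 intron 8, 24.1 kb from the start, chr3:28721877-28722077: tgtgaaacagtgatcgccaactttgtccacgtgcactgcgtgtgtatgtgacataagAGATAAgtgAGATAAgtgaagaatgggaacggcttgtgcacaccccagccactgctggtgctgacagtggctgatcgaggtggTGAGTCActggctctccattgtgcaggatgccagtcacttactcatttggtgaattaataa
Slc15a1 intron 17, 33.5 kb from the start, chr14:121471667-121471867: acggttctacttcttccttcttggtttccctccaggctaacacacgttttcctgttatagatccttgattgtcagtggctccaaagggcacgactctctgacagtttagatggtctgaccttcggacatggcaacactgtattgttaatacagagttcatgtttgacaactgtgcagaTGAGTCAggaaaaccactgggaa
Slc3a1 intron 7, 24.2 kb from the start, chr17:85052516-85052716: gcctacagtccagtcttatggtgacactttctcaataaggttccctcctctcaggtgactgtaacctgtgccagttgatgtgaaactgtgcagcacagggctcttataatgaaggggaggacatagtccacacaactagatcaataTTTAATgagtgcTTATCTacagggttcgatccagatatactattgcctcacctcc
The capitals in the Slc3a1 promoter (CAAAGTCCA) and in Slc9a3 intron 1 (TGGACTTTG, its reverse complement) are HNF4 sites. Slc2a2 intron 8 holds a pair of GATA sites (AGATAA) and an AP-1 site (TGAGTCA), Slc15a1 intron 17 an AP-1 site (TGAGTCA), and Slc3a1 intron 7 an ARID3 site (TTTAAT) and a GATA site (TTATCT). The part of the Slc15a1 promoter shown held no match to the 5 motifs. In the windows of the peaks named for each gene, 0 pairs of sites overlapped.

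The WT lists held 40492, 50704 and 55091 peaks (samples 1 to 3), and the cKO lists 58297, 46415 and 51464. WT 1 was the shortest list and cKO 1 the longest, and the deposited lists hold no read totals. The most frequent background coverage recovered from the caller's values was 1.75 to 2.29 fragments per base. It was found at 92 (WT 1) to 479 (cKO 1) of 3000 sampled peaks per list, and the other peaks had other local backgrounds. Of 12 epithelial marker genes, 9 had a promoter peak in each WT list and 8 in each cKO list, and 1 had none in any list. Among the 6 epithelial markers with a promoter peak in all lists, the 3 cKO percentiles lay below the 3 WT percentiles at 2, against 9.66% of 9777 gene promoters, and the median difference (cKO minus WT) was -9.46 percentile points, against -1.48. These 2 were Cldn7 and Cdx2, and at Cldn7 cKO 2 (18.3) lay just below the lowest WT value (18.5). At the others, Vil1, Cdh1, Elf3 and Olfm4, cKO 2 lay within the WT range. There cKO 1 and cKO 3 were below that range at all but Olfm4. Peak numbers at Epcam, an epithelial adhesion gene, were 7, 10 and 8 in WT and 4, 5 and 4 in cKO. It was the 1 of the 12 whose peak numbers did not overlap. Over all 21938 protein-coding genes, 0.296% had all cKO counts below all WT counts. Of 10 leukocyte markers, 9 had no promoter peak in any list and 1 was called in all 6, at a mean percentile of 10.4. Of 10 mesenchymal and endothelial markers, 6 had none and 2 to 4 were called per list. Those called in all 6 lists, Col1a1 and Pdgfra, had mean percentiles of 73.5 and 78.2. Summed peak numbers at the mesenchymal and endothelial markers were 17 to 26 in WT and 20 to 34 in cKO. The part of these differences in the transporter values was not tested. Fewer cells of one type and less accessibility per cell cannot be told apart in bulk crypts.

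Promoters of 3 genes that mark the proximal small intestine were called in every list, together with 1 of 2 ileal and 2 of 3 colonic markers.

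At the 10 genes, WT samples 1 to 3 had 46, 59 and 59 peaks, whereas cKO samples 1 to 3 had 67, 51 and 54. The means were 54.7 ± 7.51 (SD, n = 3) in WT and 57.3 ± 8.50 (SD, n = 3) in cKO, a difference of 2.67 peaks, less than the spread within either genotype. The shortest list, WT 1, had the fewest and the longest, cKO 1, the most, and peaks at these genes were 0.105% to 0.116% of every list. Distal peaks made up most of them, 37 to 57 per list against 7 to 10 promoter peaks. One further peak per list, in intron 5 of Slc5a1, lay on the promoter of the neighbouring gene 5033423K11Rik.

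**Figure D1:**
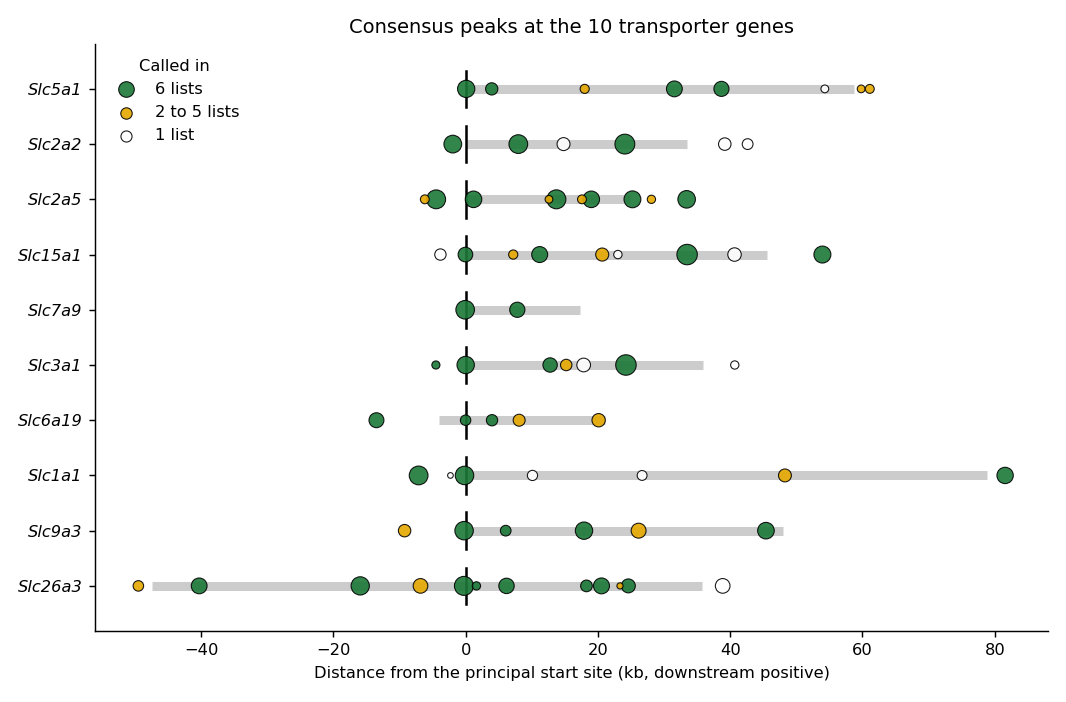
The 72 consensus peaks by distance from the start of the principal transcript in kb, 1 row per gene, with grey bars for the annotated gene and black ticks for the start. Circle area grows with the mean percentile, green marks the 41 peaks called in all 6 lists, yellow those in 2 to 5 lists and white those in 1 list; Slc2a2 and Slc2a5 have no circle at the start.

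The 72 consensus peaks comprised 62 distal peaks, 9 promoter peaks and the neighbour's promoter. Of the 72, 41 (56.9%) were called in all 6 lists, against 45.9% of all consensus peaks, and 13 (18.1%) were called in 1 list, against 20.9%. Of the 13 single-list peaks, 7 came from cKO 1 and 0 from WT 1. Their percentiles ran from 1.37 to 44.5, below the median of 58.6 for the 41 shared peaks. A further 9 peaks were called in 4 lists, and 7 of these were missing from WT 1 and cKO 2 only, the 2 shortest lists. No transporter peak was called in all 3 cKO and no WT sample, against a background of 0.464% of all consensus peaks, and none in all 3 WT and no cKO sample, against 0.111%. A count of 0 of 72 allows a share of up to 4.17%, and both background shares lie under that limit.

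Every gene held at least 1 distal peak called in all 6 lists. Of these 32 distal peaks, 20 lay in introns of the principal transcript, 5 upstream and 4 downstream of the gene, and 3 in the annotated gene outside the principal transcript. Of the 32, 20 lay more than 10 kb from the principal start. Promoters made up 8 of the 41 shared peaks (19.5%), with the neighbour's promoter counted apart, against 36.9% of the 32748 shared peaks of the whole series. In the whole series, a promoter peak lay on the promoter of any gene and every other peak was distal, so the classes are not the same. The median percentile of promoter peaks at the 10 genes exceeded that of their distal peaks in all 6 lists, by 26.6 ± 2.19 (SD, n = 3) points in WT and 25.4 ± 1.72 (SD, n = 3) in cKO. With the classes of the whole series the gap was 32.8 to 39.3 points per list, larger than the 23.8 to 29.1 points here. The 8 shared transporter promoters had a median of 69.6 for their mean percentile, below the 81.5 of all 12071 shared promoter peaks. The 32 distal peaks had a median of 57.7, close to the 56.6 of all 20677 shared distal peaks. The transporter loci thus had distal peaks near the middle of all distal peaks and promoter peaks below the middle of all promoter peaks.

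Sugar transporters. Slc5a1 (chromosome 5, 33104219 to 33162870, plus strand) had 5, 6 and 7 peaks in WT samples 1 to 3 and 7, 7 and 6 in the cKO samples. Its promoter summit lay in exon 1, 86 bp from the start, with percentiles of 65.3, 70.9 and 64.4 in WT and 55.9, 79.0 and 48.8 in cKO. The cKO samples lay on both sides of the WT samples, and the difference was -5.58 points (SE 8.98, limma adjusted p = 0.875). The strongest distal peak of Slc5a1, in intron 5 at 31.6 kb, had percentiles of 40.2, 60.2 and 58.8 in WT and 56.2, 46.3 and 56.4 in cKO, and the groups overlapped. A weaker peak in intron 1 at 3.9 kb had percentiles of 41.2, 44.5 and 25.8 in WT and 17.8, 32.0 and 14.3 in cKO. Only cKO 2 lay within the WT range there, and the difference of -15.8 points (SE 7.85) was the lowest of the 41. Its p was 0.0734 before and 0.771 after adjustment over all 32748 peaks (limma, Benjamini-Hochberg).

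With the promoter window used, the 2 facilitative sugar carriers, Slc2a2 and Slc2a5, had no promoter peak in any of the 6 lists. This depended on the window. With 500 bp on either side of a start, 9 genes in place of 7 had a promoter peak in all 6 lists, so not both carriers lacked one. Slc2a2 (chromosome 3, 28697903 to 28731359, plus strand) had 3 to 5 peaks per list, and the one nearest its start lay 1.9 kb upstream. That upstream peak had percentiles of 57.7, 70.4 and 72.8 in WT and 67.5, 74.5 and 65.3 in cKO. The strongest Slc2a2 peak, in intron 8, had percentiles of 81.9, 91.9 and 90.0 in WT and 93.7, 88.9 and 74.2 in cKO, with 39, 73 and 82 fragments at the summit in WT and 113, 58 and 69 in cKO. This peak stayed in the upper part of every list, and the groups overlapped (difference -2.35, SE 4.95, limma adjusted p = 0.905). Another Slc2a2 peak in intron 2 at 8.0 kb had genotype means of 76.3 ± 6.49 and 76.9 ± 2.51 (SD, n = 3 each).

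Slc2a5 (chromosome 4, 150119283 to 150144169, plus strand) had 7 to 10 peaks per list, of which 6 consensus peaks were shared by all lists. Its nearest peak to the start lay in intron 2 at 1.2 kb, with percentiles of 45.7, 58.0 and 60.2 in WT and 62.2, 66.8 and 58.0 in cKO. The strongest lay in intron 6 at 13.7 kb, at 81.1, 84.6 and 81.0 in WT and 76.0, 81.2 and 69.4 in cKO. A peak 4.5 kb upstream was of like rank, at 80.9 ± 7.71 in WT and 74.6 ± 3.46 in cKO (SD, n = 3). The samples of the genotypes overlapped at all 3. The 6 Slc2a5 differences had both signs, from -12.1 (SE 9.66) to 7.67 (SE 7.99).

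Peptide transporter. Slc15a1 (chromosome 14, 121459621 to 121505252, minus strand) had 4, 7 and 6 peaks in WT and 8, 4 and 6 in cKO. Its promoter peak, with the summit 30 bp upstream of the start, had percentiles of 27.0, 36.1 and 42.4 in WT and 68.3, 38.8 and 53.0 in cKO. The summit pileup was 19, 22 and 26 fragments in WT and 56, 21 and 36 in cKO. The highest sample was cKO 1, while cKO 2 lay inside the WT range. The mean was 35.2 ± 7.72 in WT and 53.4 ± 14.8 in cKO (SD, n = 3), a difference of 18.2 points (SE 9.68), the highest of the 41 transporter peaks. It did not pass the test (limma adjusted p = 0.771, exact permutation p = 0.2), and the 95% interval of the difference ran from -3.53 to 39.9. Without cKO 1 the difference was 10.7 (SE 10.2), and without cKO 2 it was 25.5 (SE 9.05, limma adjusted p = 0.320).

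The strongest Slc15a1 peak lay inside intron 17 of 22, with percentiles of 80.6, 96.0 and 96.0 in WT and 96.2, 87.8 and 97.2 in cKO. Its pileup of 44 to 158 fragments per list was higher than at the promoter in every list. The shorter lists, WT 1 and cKO 2, held the 2 lowest values, and the difference was 2.91 (SE 4.19, limma adjusted p = 0.859). The other shared Slc15a1 peaks, in intron 1 at 11.2 kb and 53.9 kb from the start beyond the gene, were 8.36 (SE 8.04) and 4.40 (SE 7.31) points higher in cKO without passing the test. All 4 shared Slc15a1 peaks thus had a positive difference, and none passed the test.

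Amino acid transporters. Slc3a1 (chromosome 17, 85028376 to 85064236, plus strand) and Slc7a9 (chromosome 7, 35448796 to 35466036, plus strand) encode the 2 chains of one exchanger. At the Slc3a1 promoter, percentiles were 75.0, 70.7 and 63.2 in WT and 56.5, 61.7 and 63.1 in cKO. All cKO samples lay below all WT samples, with 63.1 in cKO 3 just under 63.2 in WT 3, at 60.4 ± 3.44 against 69.6 ± 5.93 (SD, n = 3). The difference was -9.21 points (SE 6.99, limma adjusted p = 0.772), and the exact permutation p of 0.1 was the smallest that 3 against 3 samples allow. When peaks were ranked by -log10 q in place of fold, the difference was 0.264. The summit fell within 100 bp of the start in 3 lists (WT 1, WT 2 and cKO 1) and further downstream in the same peak in the others.

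In intron 7 of Slc3a1, the peak with the highest mean percentile of all 72 (93.0) had percentiles of 92.3, 94.8 and 94.8 in WT and 92.7, 92.8 and 90.3 in cKO. Its difference of -2.03 had an SE of 1.76, the lowest of the 41. All 4 shared Slc3a1 peaks had a negative difference, from -9.21 to -2.03, and none passed the test. Slc7a9 had only 2 or 3 peaks per list. Its promoter was at 77.1, 72.9 and 75.4 in WT and 69.6, 71.5 and 86.2 in cKO, a difference of 0.594 (SE 5.79), with the cKO samples on both sides of WT. Its distal peak, in intron 10 at 7.8 kb, was at 45.0 ± 3.60 in WT and 51.6 ± 9.08 in cKO (SD, n = 3).

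Slc6a19 (chromosome 13, 73679745 to 73704865, minus strand) had the weakest promoter of the group. Its peak 3 bp from the principal start was at 3.62, 15.3 and 27.8 in WT and 34.4, 24.1 and 12.0 in cKO, with 16 to 42 fragments at the summit. A second promoter peak, at an alternative start 8.1 kb downstream, was called in WT 2 (32.5) and cKO 1 (22.6) only. The strongest distal peak of Slc6a19, 13.5 kb upstream, was at 38.4, 40.2 and 46.2 in WT and 49.3, 60.3 and 44.8 in cKO. Genotypes overlapped at these peaks (upstream peak, difference 9.87, SE 8.22, limma adjusted p = 0.781).

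Slc1a1 (chromosome 19, 28835049 to 28913960, plus strand) had 3 to 6 peaks per list. Its promoter was at 76.7, 73.5 and 77.9 in WT and 71.5, 75.5 and 71.2 in cKO, and a peak 7.1 kb upstream was of like rank, at 74.6, 80.7 and 80.1 in WT and 71.5, 75.5 and 78.8 in cKO. Both differences were under 4 points (-3.28, SE 4.99, and -3.21, SE 4.70), and the groups overlapped. A peak beyond the gene, 81.6 kb from the start, was at 52.7 ± 2.64 in WT and 61.3 ± 7.13 in cKO (SD, n = 3).

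Salt exchangers. At Slc9a3 (chromosome 13, 74121457 to 74169442, plus strand) the promoter was at 55.8, 81.4 and 82.7 in WT and 82.9, 63.1 and 79.3 in cKO. The 2 low values belonged to the short lists, 1 of each genotype, and the difference was 1.82 (SE 8.45). Without WT 1 it was -6.91. The intron 1 peak at 6.1 kb was at 24.7, 25.2 and 26.6 in WT and 19.2, 10.6 and 18.0 in cKO, so all cKO samples lay below all WT samples. The summit pileup there was 19 to 22 fragments in WT and 17 to 26 in cKO, near the low end of the 41 peaks. The difference was -9.59 points (SE 5.18, limma adjusted p = 0.771, exact permutation p = 0.1). A stronger peak of the same intron at 17.9 kb was at 54.5, 53.5 and 75.7 in WT and 74.8, 59.6 and 71.5 in cKO, in the other direction (7.42, SE 8.57) with overlapping groups.

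Slc26a3 (chromosome 12, 31390871 to 31473917, plus strand, principal start at 31438219) had the most peaks, 8 to 12 per list, of which 8 consensus peaks were shared. Its promoter had the highest mean percentile of the transporter promoters, at 81.9, 83.8 and 75.3 in WT and 73.3, 80.7 and 80.3 in cKO, a difference of -2.21 (SE 4.47). The strongest distal peak, 15.9 kb upstream of the principal start, was at 63.5, 66.5 and 72.4 in WT and 80.6, 69.7 and 82.3 in cKO. Of its cKO samples, cKO 1 and cKO 3 were above WT and cKO 2 was within the WT range, and the difference of 10.1 (SE 6.04) did not pass the test (limma adjusted p = 0.771). The 8 shared Slc26a3 peaks had 4 positive and 4 negative differences.

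**Figure D2:**
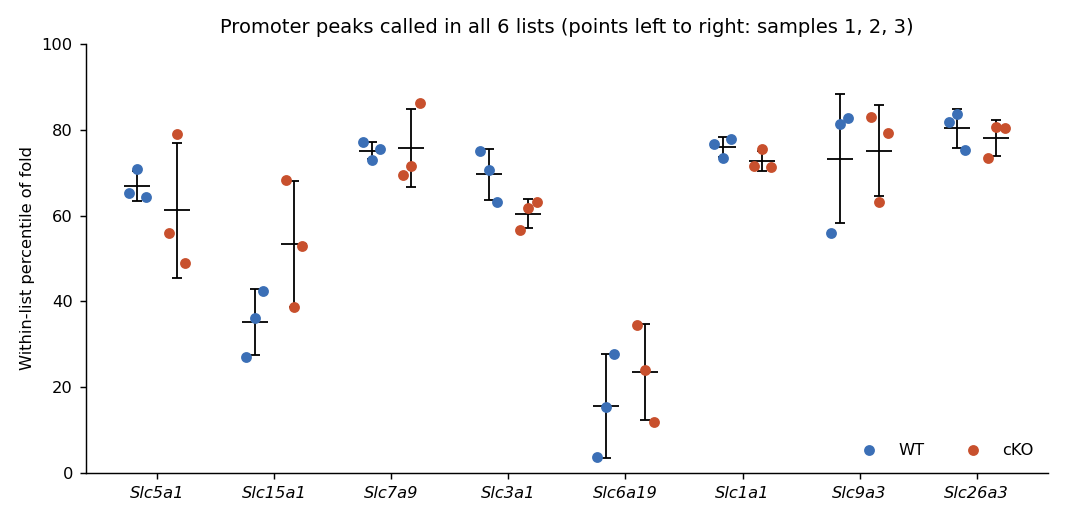
Within-list percentile of fold for the 8 promoter peaks called in all 6 lists, with 1 point per sample (blue WT, red cKO), a dash for the mean and bars for the SD (n = 3). The cKO points of Slc3a1 lie below its WT points, while at the other 7 genes the genotypes overlap; Slc15a1 has the widest gap between means, 35.2 in WT and 53.4 in cKO.

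Among genes, 7 of the 10 had a promoter peak with its summit in the window in all 6 lists (Slc5a1, Slc15a1, Slc7a9, Slc6a19, Slc1a1, Slc9a3 and Slc26a3), against 44.6% of all protein-coding genes. Ranked among the 9777 genes with such a promoter, Slc26a3 had the highest mean, at percentile 35.4, followed by Slc7a9 (29.1), Slc1a1 (27.6), Slc9a3 (27.3), Slc5a1 (16.6), Slc15a1 (5.67) and Slc6a19 (1.14). All 7 were therefore in the lower part of the order, and neighbours from Slc26a3 to Slc9a3 were closer than their spread over samples. The 3 cKO samples lay above the 3 WT samples at 0 of the 7 promoters, against 2.89% of the 9777, and below at 0, against 9.66%. The background was unequal between directions, with a median difference of -1.48 points over the 9777 genes and 0.594 over the 7.

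**Figure D3:**
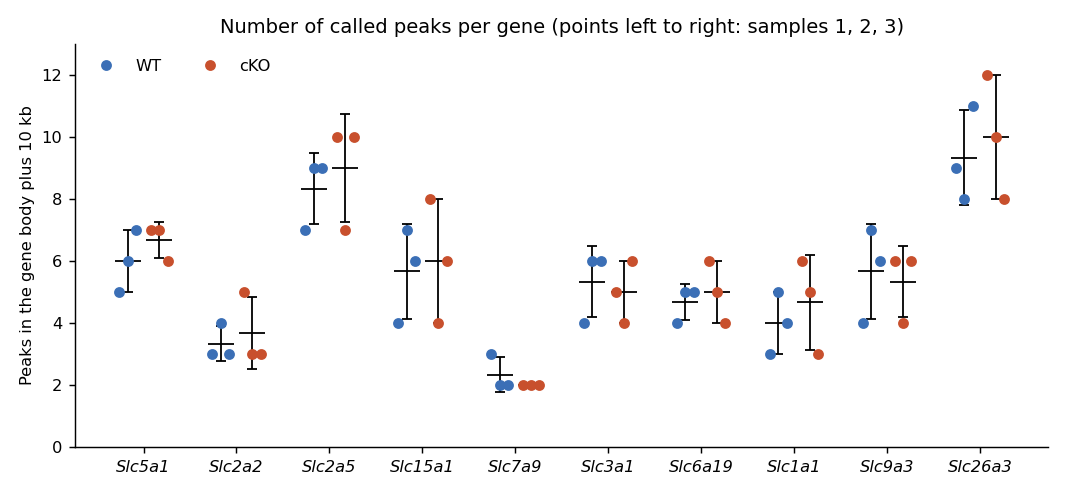
Number of called peaks with a summit in the gene body plus 10 kb, with 1 point per sample, a dash for the mean and bars for the SD (n = 3). Genotypes overlap at all 10 genes, from Slc7a9 with 2 or 3 peaks to Slc26a3 with 8 to 12.

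Peak numbers per gene overlapped between genotypes at all 10 genes. The 3 cKO counts were above the 3 WT counts at 0 of 10 genes, against 0.666% of 21938, and below at 0 of 10, against 0.296%. With 10 genes, a count of 0 allows a share of up to 30%.

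Over the 41 shared peaks, 0 had all cKO percentiles above WT, against 4.66% of the 32748 shared peaks, and 2 (4.88%) had all below, against 7.04%. These were the Slc3a1 promoter and the Slc9a3 intron 1 peak already described, and both shares lay below those of all shared peaks. The limit from a count of 0 is 7.32%. In the limma fit 0 of 41 peaks had an adjusted p under 0.05, against 0% of all peaks, and adjusted p-values ran from 0.771 to 0.998. At an unadjusted p under 0.05 there were 0 as well, against 3.02% of all peaks higher and 2.71% lower in cKO. Differences ran from -15.8 to 18.2 points with a median of 0.750, against -0.0946 over all peaks, and 23 were positive and 18 negative (56.1% positive, against 49.3%). SEs ran from 1.76 to 12.2 points, so differences of several points could not be resolved at most peaks.

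**Figure D4:**
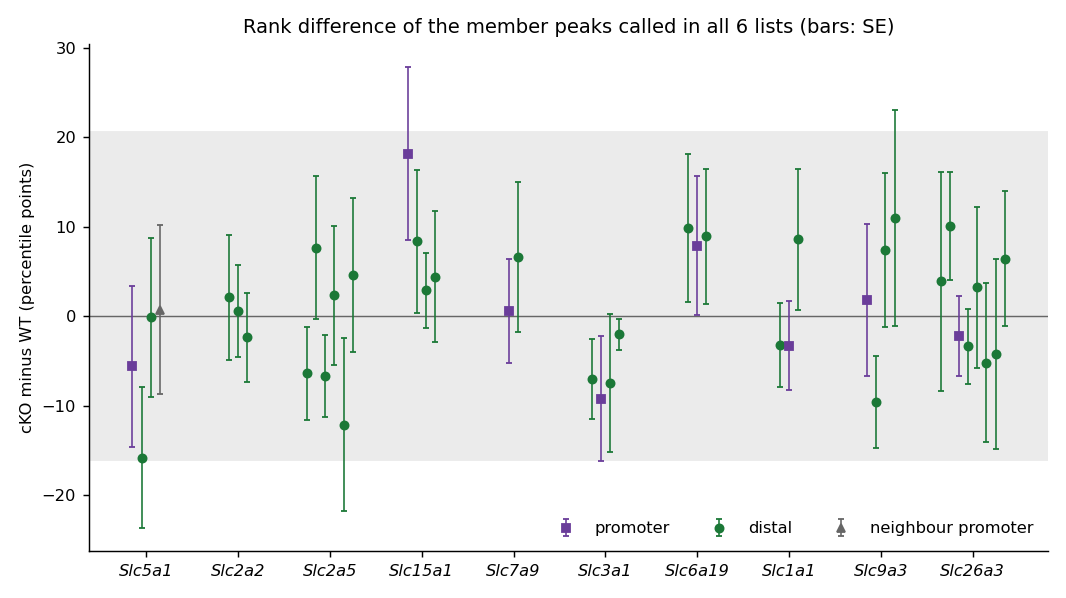
Difference in within-list percentile (cKO minus WT, percentile points) for the 41 peaks called in all 6 lists, in order along each gene, with bars for the SE (limma). The grey band holds the central 95% of all 32748 shared peaks, -16.1 to 20.6, and all 41 transporter peaks lie inside it.

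Single libraries weighed on these values. WT 1 gave the lowest of the 6 percentiles at 17 of the 41 peaks (41.5%), against 35.8% of all shared peaks, and the median percentile of the 41 was 52.5 in WT 1 and 58.0 to 62.2 in the other lists. The median summit pileup of the 41 peaks was 29, 43 and 53 fragments in WT and 86, 39 and 60 in cKO, lowest in the shortest list and highest in the longest. The mean number of transporter peaks differed by 2.67 (cKO minus WT) with all samples, by -1.67 without WT 1 and by -2.17 without cKO 1.

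Sequence described the loci further. The 32 shared distal peaks had a median A+T content of 51.5% within 100 bp of the summit, against 49.3% of all shared distal peaks, and the 8 promoters 40.8%, against 34.3%. HNF4 sites were found in 3 of the 32 distal windows (9.38%, against 3.78% of all shared distal windows) and in 1 of the 8 promoter windows (12.5%, against 0.795%). The 4 peaks with an HNF4 site had differences from -9.59 to 6.45 points, 2 of them positive, and the 2 negative ones were the Slc3a1 promoter and the Slc9a3 intron 1 peak. GATA sites were in 10 distal windows (31.3%, against 25.2%), ARID3 sites in 6 (18.8%, against 16.9%), CDX sites in 5 (15.6%, against 11.7%) and AP-1 sites in 4 (12.5%, against 11.2%). The 8 peaks with an ARID3 site, promoters included, had differences from -7.04 to 7.42, with 4 of the 8 positive. CpG content was read from 250 bp before to 50 bp after a start. For the 10 genes this was the start of the principal transcript, which matched a RefSeq start only at Slc5a1, Slc2a2 and Slc26a3. The promoters set against them used RefSeq starts on the same build, where all 10 genes were found by symbol. The ratio of observed to expected CpG was under 0.5 in 7 of the 10, against 58.1% of 32851 RefSeq promoters, with a median of 0.390 against 0.384.

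The transporters were set beside 31 further genes for the uptake of sugars, peptides, amino acids and salt, from a list chosen with earlier results of these data known. Of the 31, 18 had a promoter peak in all 6 lists and 6 had none. The median promoter percentile of the 18 was 74.6, near the 74.2 of the 7 transporter promoters. It was 66.1 for the 6 epithelial markers and 85.8 over all genes with such a promoter. A lower promoter rank was thus not particular to the 10 genes. The 3 cKO samples lay above WT at 1 of the 18 promoters (Slc6a20a, an imino acid carrier) and below at 1 (Slc9a2, a sodium/proton exchanger), both named after their values were seen, against 2.89% and 9.66% of all promoters. Both separations were narrow in cKO 2. It was at 93.0 at Slc6a20a, against a highest WT value of 92.4, and at 83.6 at Slc9a2, against a lowest WT value of 83.8. The median difference of the 18 promoters was -2.42, against -1.48. Peak numbers separated the genotypes at 0 of the 31 genes, against 0.666% of all genes higher and 0.296% lower in cKO.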

How the data were processed

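Crypts were dissociated by the authors and a fixed number of cells per sample was tagmented with Tn5. Reads were trimmed with Trim Galore, aligned to GRCm38 with BWA and filtered in the nf-core/atacseq pipeline with the Ensembl 95 annotation, and narrow peaks were called with MACS for each sample, with an effective genome size of 2.6 Gb and a blacklist. No input control was described. The deposited lists give for each peak a score, a fold, a -log10 p and a -log10 q. The score deposited by the authors is derived from the -log10 q, and the fold of the authors is the ratio of pileup to local background. No model of reads per peak was fitted.

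The 10 genes, the other gene lists and the tests were chosen with earlier results of these data known. Lists were restricted to the autosomes, X and Y, and peaks that overlapped by at least 1 bp were merged. A consensus peak took the highest percentile of its peaks in a sample and the summit of its strongest peak. Genes were those of GENCODE M21, and sequence was read from GRCm38. Percentiles of the peaks called in all 6 lists were compared with limma 3.58.1 (R 4.3.3), without covariates and with a variance trend, with Benjamini-Hochberg adjustment over all of them and a threshold of 0.05, and single values with an exact two-sided permutation test over the 6 samples. The limma step was tested on simulated data. Fragments at a summit were taken as the whole number that, with the fold, gave the listed -log10 p to within 0.001, or in proportion above a -log10 p of 10, and one was found for every shared transporter peak. The labels number the samples but do not say that each is a separate animal, so p-values measure the spread between these samples. The interval of a difference came from the limma SE and measures the spread between samples. Limits from counts of 0 (3 counts) cover counting error only.

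All 10 genes are named. For each, the promoter peak and the distal peak of highest mean percentile were given, along with any peak past the threshold or called in one genotype only, and the separated peaks. Other peaks and genes are named where a result turns on them and were chosen after their values were seen.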

Additional observations from a re-analysis of the deposited data

How the results depend on the processing

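The count of 0 transporter peaks with a limma adjusted p under 0.05 held under all alternatives run, with a smallest adjusted p over all peaks of 0.771 as reported and 0.320 without cKO 2. The replicate block left that count at 0, with 1348 unadjusted p-values under 0.05 over all peaks in place of 1876, and changed no other call. Deviations of same-numbered samples correlated at r = -0.298, -0.0284 and 0.134, so the numbers were not taken as pairs. The count with an unadjusted p under 0.05, 0 as reported, was 1 without the variance trend (Slc9a3 intron 1), against 2248 of all 32748 peaks. It was 1 when fold was ranked among shared peaks (Slc15a1 promoter), against 2151 of 32748. It was 0 to 3 when single samples were left out. The count of 3, of 41, came without cKO 2 (Slc5a1 intron 1, the Slc15a1 promoter and the Slc26a3 peak 15.9 kb upstream). Without cKO 2, 5079 of all 33930 peaks had such a p, so low p-values became more frequent throughout.

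Promoters with all cKO samples above WT, 0 as reported, were 1 (Slc15a1) in the ranking among shared peaks and in lists of equal length, and 0 to 1 with single samples left out (Slc15a1, without WT 3 or cKO 2). Promoters with all below, 0 as reported, were 1 (Slc3a1) with promoters of 500 bp on either side, and 0 to 2 with single samples left out (2 without cKO 2, Slc5a1 and Slc1a1). In lists of equal length, Slc5a1 had fewer peaks in all cKO samples (1 gene) and 1 peak called in WT only. Of all 53118 consensus peaks in that setting, 146 were called in WT only. Leaving out single samples gave 0 to 1 genes with more peaks in cKO (Slc2a5, without cKO 2). Peaks called in cKO only, 0 as reported, were 1 (Slc2a5) with -log10 q of at least 5, against 282 of all 56741 consensus peaks. With 2 of 3 samples sufficing there was 1 (Slc2a5), against 2378 of 71286. With single samples left out there were 0 to 1. These were Slc5a1 without WT 3, against 1361 of 68409, and Slc2a5 without cKO 2, against 1819 of 69810. Peaks called in WT only were 1 (Slc1a1) with 2 of 3 samples sufficing, against 889 of 71286. With single samples left out there were 0 to 1. These were Slc1a1 without WT 1, against 669 of 69761, and Slc5a1 without cKO 1, against 321 of 67421. For promoters and peak numbers, shares over all genes are given for the reported setting only. The promoter minus distal gap, 26.0 points as reported, was 21.7 in lists of equal length and 25.4 to 26.4 with single samples left out.

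Of 243 differences of 19 named peaks under alternatives, 24, at 11 peaks, changed sign, and none of the reported values they belong to passed the test. With ranking by -log10 q these became 2.82 (Slc5a1 promoter), 0.478 (Slc2a2 intron 8), 0.264 (Slc3a1 promoter), 0.328 (Slc3a1 intron 7), 2.34 (Slc1a1 promoter), 1.49 (Slc1a1 upstream) and 2.47 (Slc26a3 promoter). With -log10 q of at least 5, Slc5a1 intron 5 became 2.92. In lists of equal length the Slc7a9 promoter became -1.28 and the Slc9a3 promoter -0.698, and in the ranking among shared peaks -0.505 and -0.420. With single samples left out, ranges crossing 0 were -14.4 to 0.629 (Slc5a1 promoter), -6.55 to 3.43 (Slc5a1 intron 5), -6.40 to 3.37 (Slc2a2 intron 8), -2.22 to 5.87 (Slc15a1 intron 17), -4.64 to 3.70 (Slc7a9 promoter), -6.91 to 7.83 (Slc9a3 promoter) and -4.73 to 0.179 (Slc26a3 promoter). For Slc6a19, the stronger of its 2 promoter peaks per sample (WT 2 at its alternative start) differed by 2.15, with a range of -6.70 to 7.91, whereas the peak at the principal start kept its sign, with 1.93 as the lowest value. Where values changed, the cause was not tested. With 3 samples per genotype no permutation p can fall under 0.1.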
